A study of Mus musculus with 6 samples.

Results

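Bradykinin receptors and the cyclooxygenases that start prostaglandin synthesis were examined in mIMCD3 cells, a mouse line derived from the inner medullary collecting duct of the kidney, 1 h after aldosterone or vehicle. Members were all probe sets whose only annotated gene symbol was Bdkrb1, Bdkrb2, Ptgs1 or Ptgs2. This rule found 3 of the 4 genes, each with 1 probe set, among 12422 probe sets: 101748_at for Bdkrb1, 98387_at for Bdkrb2 and 104647_at for Ptgs2. No probe set carried Ptgs1 as its only symbol in the annotation used here, so the constitutive cyclooxygenase was not analysed here. The experiment was repeated 3 times, and each replication gave 1 vehicle array and 1 aldosterone array, so that each group held 3 arrays. The dose of the hormone and the make-up of the vehicle are not stated in the labels, and nothing beyond the replication number says how far the cultures were separate, so p-values reflect only the scatter among these arrays, which may be technical.

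Kinins are short vasoactive peptides cut from kininogens by kallikreins. Bdkrb2 is the receptor for intact bradykinin and is usually constitutive, whereas Bdkrb1 binds kinins that have lost their C-terminal arginine and is usually induced by injury and inflammation. Both couple to phospholipase C, and their activation can release arachidonate, which Ptgs1 and Ptgs2 convert to prostaglandin H, the precursor of prostaglandin E and the other prostanoids. In the collecting duct, prostaglandin E and bradykinin are known to oppose salt and water reabsorption.

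One member, Ptgs2, is an early-response gene with known regulatory elements directly upstream of its coding region, and its promoter is shown because it was the member whose level varied most between replications. The sequence is from RefSeq, build GRCm38.p6, chr1:150099781-150100060, plus strand, and covers the 250 bases before the annotated gene start and the first 30 bases after it. Capitals mark the matches found.

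Ptgs2: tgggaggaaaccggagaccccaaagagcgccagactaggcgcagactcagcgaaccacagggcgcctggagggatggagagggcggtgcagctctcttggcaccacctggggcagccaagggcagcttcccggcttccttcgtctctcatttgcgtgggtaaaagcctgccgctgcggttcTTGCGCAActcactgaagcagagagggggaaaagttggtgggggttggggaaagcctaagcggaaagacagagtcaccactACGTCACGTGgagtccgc

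The first run of capitals is the palindromic C/EBP motif TTGCGCAA, which starts 69 bases before the annotated start and was found in 0.18% of the 32851 promoter windows of this length. Positions count from this annotated start, which was not compared with measured transcription starts. The second run lies after the annotated start. It holds a cyclic AMP response element core, ACGTCA, from base 13, overlapping an E-box, CACGTG, from base 17. Those letters occurred on either strand in 7.26% and 6.79% of windows. The window held neither the AP-1 site TGANTCA (7.46% of windows) nor the steroid receptor half-site TGTTCT (17.8%). None of these 5 motifs was found in the Bdkrb2 window, and a match is a description of letters, not of a bound site. Of the 4 genes, 3 had a window in the RefSeq table. Matches in the Ptgs1 window were not listed, and Bdkrb1, without a window, is named only.

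Brightness separated the members. Intensities were scaled so that the arrays shared a trimmed mean, and probe sets were tested only if the mean of log2(intensity + 53.0) over the 6 arrays reached 8.87, the 40th percentile of all probe sets, which corresponds to an intensity of about 414. Bdkrb1 lay at percentile 58.2 and was tested. Ptgs2 lay at percentile 36.3, under the filter and near background on 4 arrays, and Bdkrb2 at percentile 10.4, near background. Their values are given below without a main test.

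**Figure D1:**
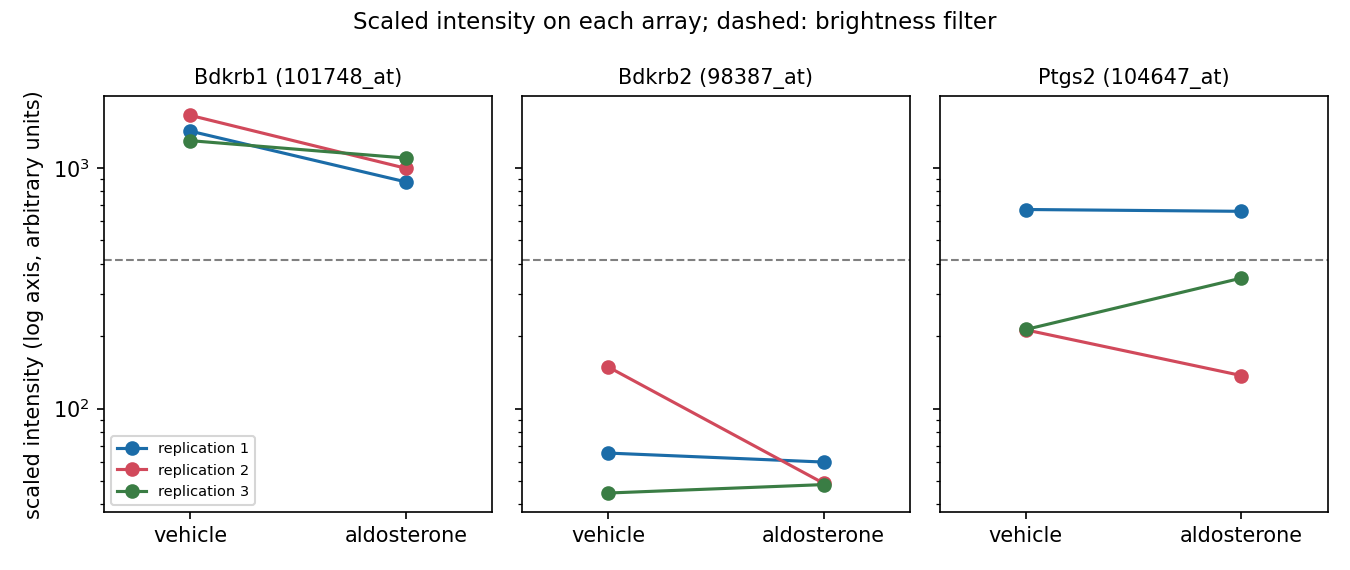
Scaled intensity of each member probe set on the 6 arrays, on a log axis, with a line joining the vehicle and aldosterone arrays of 1 replication and a dashed line at the brightness filter (414). Bdkrb1 is above the line on all arrays, Ptgs2 is above it on both arrays of replication 1 only, and Bdkrb2 is below it throughout.

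Bdkrb1, the inducible kinin receptor, read lower with aldosterone in all 3 replications. Its scaled intensity was 1419, 1650 and 1296 on the vehicle arrays of replications 1, 2 and 3, and 873, 995 and 1098 on the matching aldosterone arrays. The lowest vehicle array was therefore above the highest aldosterone array. Group means were 1455 ± 180 for vehicle and 989 ± 112 for aldosterone (SD, n = 3 each). Aldosterone arrays read 61.5%, 60.3% and 84.7% of their vehicle partners, log2 differences of -0.67, -0.70 and -0.23 on the scale with the pseudocount.

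On average Bdkrb1 differed by -0.53 on the log2 scale (standard error 0.200, 95% interval -0.98 to -0.084), or 1.45-fold lower. With the replicate block the standard error was 0.190 and the interval -0.96 to -0.10. It did not pass the threshold over all tested probe sets, with an adjusted p of 0.9995 in limma's fit on group alone and 0.998 with the replicate block. No probe set passed: 0 of 7453 (0%) were called at an adjusted p under 0.05, in that fit and with the block. The unadjusted p from limma was 0.0248, under the level of 0.05 that 72 probe sets (0.966%) reached, 26 of them (0.349%) lower, and it ranked 34 among the 7453. With the block it was 0.0206, where 250 (3.35%) were under 0.05, 96 of them (1.29%) lower. On average a level of 0.05 admits a larger share than 0.966% or 3.35% even where nothing differs. With single arrays left out, the unadjusted limma p of Bdkrb1 on group alone lay between 0.0278 (without the vehicle array of replication 3) and 0.0824 (without the aldosterone array of replication 1). An exact permutation test of the 6 Bdkrb1 values, two-sided, gave p = 0.1, the smallest that 3 arrays against 3 allow. It moved arrays freely between groups and did not keep the pairs of a replication. A permutation that keeps the pairs was not run, and its fewer arrangements would make the smallest possible p larger. Among all tested probe sets, 169 (2.27%) had every aldosterone array below every vehicle array, 860 (11.5%) were lower in 3 of 3 replications, and 100 (1.34%) had a log2 difference at or below that of Bdkrb1. The Bdkrb1 groups thus separated fully, but with 3 arrays against 3 such separation cannot give an exact p under 0.1. The size of the difference was not distinguished from the spread after correction.

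**Figure D2:**
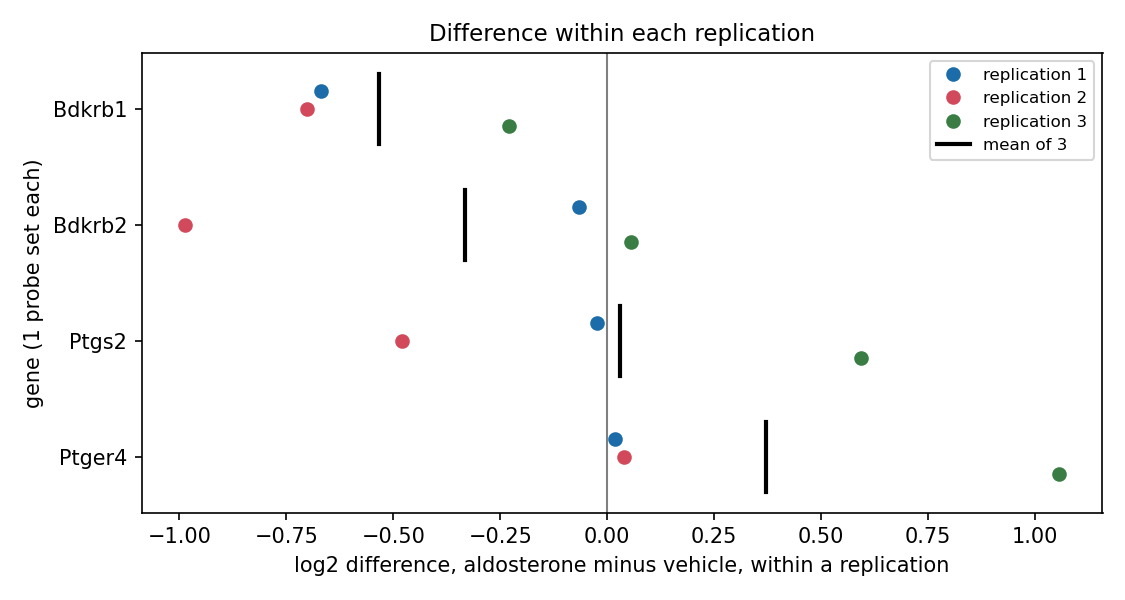
Log2 difference of aldosterone minus vehicle within each replication (coloured points) and the mean of the 3 (black bars) for the member probe sets and for Ptger4, on the log2(intensity + 53.0) scale. Every Bdkrb1 point is below 0 (-0.67, -0.70 and -0.23), while those of Bdkrb2 and Ptgs2 lie on both sides.

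Bdkrb1 itself varied little between replications. The mean of both arrays was 1146 in replication 1, 1323 in replication 2 and 1197 in replication 3. After the treatment was taken into account, its replications spanned 1.14-fold (adjusted p = 0.814, limma's F test), where 583 of 7453 tested probe sets (7.82%) were called. The tested probe sets whose log2 values were most like those of Bdkrb1 over the 6 arrays were Rabggtb, a subunit of the enzyme that attaches lipid anchors to Rab proteins (Pearson's r = 0.980), Aplf, a DNA repair factor (0.970), and Trafd1 (0.955), out of 6741 candidates. With only 6 arrays that share scaling and pairing these are descriptions. Rabggtb read 3891, 4915 and 3912 on the vehicle arrays and 2704, 3200 and 3259 on the aldosterone arrays, in replication order. Like Bdkrb1, it was lowest in replication 1 with aldosterone and highest in replication 2 with vehicle.

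Bdkrb2, the receptor for intact bradykinin, was near background on every array. It read 65.4, 149 and 44.6 under vehicle and 59.98, 49.0 and 48.4 under aldosterone in replications 1, 2 and 3, between percentiles 9.54 and 20.3 of its array. The vehicle array of replication 2 stood above the other 5, which lay within 44.6 to 65.4, and the groups overlapped. On that array 4.55% of all probe sets were at or below the pseudocount, against 9.60% to 12.5% on the others. Dim probe sets in general therefore read higher there. Bdkrb2 also stood at its highest percentile there, 20.3, against 9.54 to 13.2 on the others. The part of the general shift in the Bdkrb2 value was not tested. Means were 86.3 ± 55.2 for vehicle and 52.4 ± 6.54 for aldosterone (SD, n = 3 each). The mean log2 difference was -0.33, and -0.03 without the vehicle array of replication 2. It was -0.22 when all arrays were given the same distribution of intensities (quantile normalization). With no brightness filter its 95% interval ran from -1.11 to 0.45 on group alone (adjusted p = 0.9996, limma). With the replicate block it ran from -1.14 to 0.47 (adjusted p = 0.998, limma). Both leave its direction unresolved. On the aldosterone array of replication 3 the deposited value was 2.0, stored in steps of 0.1 that correspond to 2.42 after scaling.

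Ptgs2, the inducible cyclooxygenase, was highest on both arrays of replication 1, whichever the treatment. It read 671 with vehicle and 659 with aldosterone in replication 1, 212 and 137 in replication 2, and 213 and 348 in replication 3. They stood at percentiles 47.1 and 45.7 of their arrays, against 24.5 to 37.6 on the other 4. Group means were 365 ± 265 for vehicle and 382 ± 263 for aldosterone (SD, n = 3 each), which overlapped widely.

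Within replications the log2 differences of Ptgs2 were -0.02, -0.48 and 0.59, so the direction was not shared, and their mean was 0.03. Fitted without the filter, the 95% interval was -1.22 to 1.28 on group alone and -0.84 to 0.90 with the replicate block (adjusted p = 0.9996 and 0.998, limma). The blocked interval thus spans from 1.79-fold lower to 1.86-fold higher. Leaving out single arrays moved the mean between -0.43 (without the aldosterone array of replication 1) and 0.53 (without the aldosterone array of replication 2).

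Between replications Ptgs2 spanned 3.20-fold, highest in replication 1. In limma's F test without the filter the adjusted p was 0.130 (unadjusted 0.0145), where 597 of 12422 probe sets (4.81%) were called, so this span did not pass. Of all probe sets, 1224 (9.85%) had both arrays of replication 1 above the other 4. Ptgs2 was under the filter, and its closest neighbours were sought after its values were seen. They were Fam3c (Pearson's r = 0.989 over 6 arrays), Ostf1 (0.988) and Parp8 (0.986), of 6742 candidates, of which 30 exceeded 0.95. Fam3c read 7060, 5284 and 5554 under vehicle and 7315, 5086 and 6177 under aldosterone. Its arrays fell in the order of the Ptgs2 values, apart from the arrays of replication 1 changing places, over a narrower range.

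The rest of the kinin and prostaglandin pathway was covered by a list of 68 genes, of which 49 had 66 single-symbol probe sets and 26 had the 30 that were tested. None of the 30 was called after aldosterone by limma, on group alone or with the block. An unadjusted p under 0.05 was reached by 1 on group alone and by 2 with the block. By sign, 8 (26.7%) were higher in 3 of 3 replications and 3 (10%) lower, against 10.5% higher and 11.5% lower over all tested probe sets. With median scaling these counts were 6 and 0 (20% and 0%, against 11.6% and 7.63% of all tested). In replications 1 and 2 alone 9 and 4 went one way in both (30% and 13.3%, against 23.8% and 23.4%). The median log2 difference was 0.10, against -0.0003 over all tested probe sets.

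**Figure D3:**
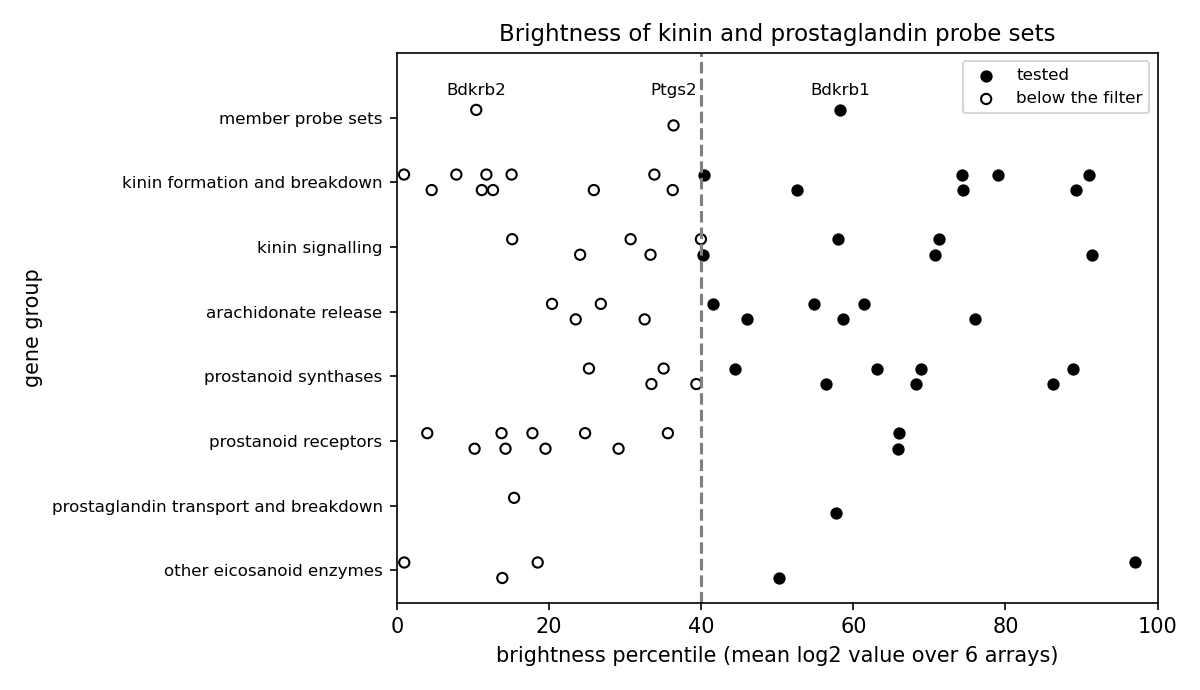
Brightness percentile of the mean log2 value over 6 arrays for the member probe sets (top row) and for each group of pathway genes, with filled points tested and open points under the 40th percentile (dashed line). Of the prostanoid receptor probe sets 2 of 11 are to the right of the line, while the 2 tested other eicosanoid enzymes lie at percentiles 50.2 and 97.1.

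Among genes that form or break down kinins, 7 of 17 probe sets were tested, with 2 higher and 1 lower in 3 of 3 replications. Kng1, the kininogen precursor of bradykinin, was at 598 ± 253 for vehicle and 365 ± 242 for aldosterone (SD, n = 3 each), close to the filter and lower in 2 of 3 replications. The kinin-degrading peptidases Prep and Xpnpep1 had log2 differences of 0.51 and -0.19, the latter lower in 3 of 3. Prep was higher in replications 1 and 2 (1.03 and 1.02) and lower in replication 3 (-0.53). The kallikreins Klk1 and Klkb1 and the angiotensin-converting enzyme Ace, which inactivates bradykinin, were under the filter in all their probe sets.

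In the signalling group, 5 of 10 probe sets were tested. Gna11, a G-protein subunit that couples receptors to phospholipase C, had 0.24 and 0.13 in its 2 probe sets, and the phospholipase C gene Plcb3 had 0.20. Plcb1, of the same family, had 0.10 in its brightest probe set and -0.22 in another that was tested. All nitric oxide synthases, Nos1, Nos2 and Nos3, were under the filter.

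Of the genes for arachidonate release, 6 of 10 probe sets were tested. Pla2g1b, a secreted phospholipase A, was the 1 probe set of the pathway at an unadjusted p under 0.05 on group alone; with the block a Ptgds probe set was the other. It read 2436, 2849 and 2298 under vehicle and 3817, 2931 and 3290 under aldosterone in replications 1, 2 and 3, without overlap between groups, which 142 of 7453 tested probe sets (1.91%) showed in this direction. Its mean log2 difference of 0.39 had a standard error of 0.168 on group alone and 0.146 with the block. The adjusted p in limma was 0.9995 and 0.998. The difference was 0.04 in replication 2, against 0.64 and 0.51 in the others. Pla2g10, close to the filter at percentile 41.6, had -0.59, with 0.20, -1.665 and -0.31 in replications 1, 2 and 3. Pla2g6 had 0.16, with -0.51, 0.87 and 0.13. The cytosolic enzyme Pla2g4a, which supplies the cyclooxygenases, had -0.03 at 1019 ± 71.1 for vehicle and 1002 ± 151 for aldosterone (SD, n = 3 each).

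Downstream of the cyclooxygenases, 7 of 11 probe sets of prostanoid synthases were tested. Ptgds, the lipocalin-type prostaglandin D synthase, had 0.23 in its tested probe set, higher in 3 of 3 replications, but -0.79 and -0.23 in 2 that were under the filter. Tbxas1, the thromboxane synthase, had 0.21, and the carbonyl reductase Cbr1 had -0.12. The prostaglandin E synthases Ptges and Ptges2 had -0.05 and 0.03. Of prostaglandin breakdown, Ptgr1 had -0.07, and Hpgd, the main inactivating dehydrogenase, was under the filter. Among other eicosanoid enzymes, the leukotriene A hydrolase Lta4h had 0.12 and the leukotriene C synthase Ltc4s -0.01.

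Prostanoid receptors were mostly dim. Ptgdr2 had a log2 difference of 0.02. Ptger4, a stimulatory receptor for prostaglandin E and so downstream of Ptgs2, read 4004, 1299 and 707 under vehicle and 4057, 1337 and 1525 under aldosterone in replications 1, 2 and 3. As with Ptgs2, both arrays of replication 1 were above the other 4, which 871 of 7453 tested probe sets (11.7%) showed, and Pearson's r between the probe sets was 0.871 over the 6 arrays, which share that split. Other pathway probe sets had values of similar size, with 0.841 for 1 of Cpd, 0.841 for Cbr1 and -0.855 for Ece1. The log2 differences of Ptger4 after aldosterone were 0.02, 0.04 and 1.06, so the mean of 0.37 was carried mostly by replication 3. There the vehicle array, at 707, was the lowest of the 6. The aldosterone array of replication 3, deposited on another scale, read 1525, beside 1299 and 1337 in replication 2. Within an array, where a scaling factor changes no rank, Ptger4 stood at percentiles 47.5 (vehicle) and 63.0 (aldosterone) in replication 3. In replication 2 it stood at 59.9 and 60.5. The part of the scaling in the replication 3 difference was not tested. Between replications Ptger4 spanned 3.73-fold (adjusted p = 0.00845, limma's F test), and 227 tested probe sets (3.05%) were called with replication 1 highest.

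In all, 4 of the 30 pathway probe sets (13.3%) were called between replications, against 7.82% of all tested. They were Ptger4, both probe sets of the carboxypeptidase Cpd, which removes C-terminal arginine, and Ece1, an endopeptidase. The Cpd probe sets disagreed, with 1 highest in replication 1 (3.87-fold span) and the other in replication 3 (1.53-fold). Without the intensity trend 0 of the 30 were called, and 2 of all 7453. When either array of replication 1 was left out, 1 was called, a Cpd probe set, and Ptger4 had an adjusted p of 0.127 without the vehicle array and 0.0704 without the aldosterone array. Over all tested probe sets, 44 (0.59%) were called without that vehicle array and 100 (1.34%) without that aldosterone array. When the aldosterone array of replication 2 was left out, 10 of the 30 and 1292 of all (17.3%) were called.

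The label of the cells was set against markers. The epithelial keratins Krt8 and Krt18 lay at percentiles 97.7 and 96.5 in their brightest probe sets, and E-cadherin, Cdh1, at percentile 72.3. The collecting duct genes Aqp2 and Avpr2, the water channel and the vasopressin receptor, were under the filter. Of other cell types, 0 of 4 endothelial, 3 of 11 fibroblast and 2 of 8 leukocyte probe sets were tested. The brightest fibroblast probe set, of Col1a2, lay at percentile 83.6, but the other of that gene lay at 13.2. The leukocyte marker Ptprc lay between percentiles 0.386 and 10.7, Itgam at 14.6 and Cd3e at 22.7. Cd14 was bright, at percentile 87.8, and the tested Cd68 probe set lay at 44.7. Both tested leukocyte probe sets, of Cd14 and Cd68, were lower with aldosterone in 3 of 3 replications, as Bdkrb1 was. A dim second Cd68 probe set was higher in 3 of 3. Of the epithelial probe sets 3 of 7 tested, of Krt8, Krt18 and Krt19, were also lower in 3 of 3. The brighter Krt19 probe set, at percentile 96.9, was higher in replication 2 and had a mean log2 difference of -0.05. Over all tested probe sets 860 (11.5%) were lower in 3 of 3. The summed level of the leukocyte marker probe sets was 5632 to 8261 on vehicle arrays and 5306 to 6744 on aldosterone arrays. Cd14 alone read 4722 to 6998 and 4211 to 5694, so the sum mostly follows 1 gene and is no measure of leukocytes. Whether the cultures held any such cells was not tested, nor was their part in the Bdkrb1 difference. Fewer cells of a type and less RNA per cell cannot be told apart here.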

How the data were processed

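RNA from 6 samples was measured on single-colour oligonucleotide arrays. The authors deposited 1 linear intensity per probe set and array, and how they were scanned or scaled is not stated in the labels. Trimmed means (2%) of the deposited intensities were 2488 to 2493 except for the aldosterone array of replication 3, at 86.5, so each array was scaled to 2090 (factors 0.838 to 0.840, and 24.2). Values became log2(intensity + 53.0), the pseudocount being the 10th percentile, and fold changes on this scale understate those of dim probe sets. Probe sets above the 40th percentile, 7453 of 12422, were tested with limma 3.58.1 in R 4.3.3 (lmFit, eBayes with intensity trend, two-sided, Benjamini-Hochberg, threshold 0.05), on group alone, with the replication number as a block as an alternative. A replication's arrays deviated together (r = 0.377, 0.387 and 0.471) and share a replication number in their titles. The numbers were therefore taken to pair the arrays. With the block the median standard error was 0.153, against 0.209 on group alone. Differences between replications were tested by F test with treatment in the model. The script was tested on simulated data. Members, lists and tests were chosen with earlier results of these data known. Named were all members, up to 3 tested genes per pathway group by smallest p, and the 3 tested probe sets most correlated with each tested member; Ptgs2's neighbours, Pla2g4a, Ptges, Ptges2, Cpd, Ece1 and genes named as dim were named after their values were seen. Symbols came from the platform annotation: 10833 probe sets had 1, 396 several and 1193 none, and 0 changed against RefSeq. The number of arrays limits precision, as does dimness for probe sets near background.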

Additional observations from a re-analysis of the deposited data

How the results depend on the processing

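The log2 difference of Bdkrb1 stayed below 0 and uncalled in all 16 alternatives, from -0.68 (replicate block, replications 1 and 2 alone) to -0.44 (without the vehicle array of replication 2), with adjusted p of 0.872 to 1 where it was tested; at the 60th percentile filter it was not tested. Bdkrb2 ranged from -0.55 to -0.03 and Ptgs2 from -0.43 to 0.53. The count of probe sets called after aldosterone, 0, was 0 to 1 on leaving out single arrays (1 without the vehicle array of replication 2), 6 with the replicate block and no filter, and 9 with the replicate block when replication 3 was dropped; none of these was a member, and the cause was not tested. The replicate block changed no call of a member. The last 2 alternatives were chosen after seeing the data. At an unadjusted p under 0.05, 72 probe sets became 250 with the replicate block. Higher and lower ones numbered 46 and 26, 61 and 20 with median scaling, and 92 and 170 with no filter. The count called between replications, 583, was 2 without the intensity trend and 44 to 1292 on leaving out single arrays (44 and 100 without the vehicle or aldosterone array of replication 1, 943 and 1292 without those of replication 2); the cause was not tested. Signal over background limits Bdkrb2 and, outside replication 1, Ptgs2.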
